A study of Rattus norvegicus with 6 samples.

Results

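The genes described here encode 3 peroxisome proliferator-activated receptors (Ppara, Ppard and Pparg), 2 retinoid X receptors (Rxra and Rxrg) and 2 uncoupling proteins (Ucp2 and Ucp3). They were chosen by gene symbol, as the row of the array with that symbol, and are 7 of the 14506 genes measured. Each of the 7 had 1 row on the array, so no choice between rows was needed.

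PPARs are nuclear receptors that are activated by fatty acids and their derivatives. Each binds DNA as a pair with a retinoid X receptor and raises the transcription of genes for fatty acid uptake, storage and oxidation. In skeletal muscle, PPAR alpha and PPAR delta act on the oxidation genes, while PPAR gamma is the main regulator of adipocytes. UCP3 is a carrier of the mitochondrial inner membrane found mainly in skeletal muscle, and its gene is a known PPAR target. UCP2 is a related carrier found in many tissues, immune cells among them.

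Gastrocnemius muscle of male Sprague-Dawley rats, 20 weeks of age, was profiled on Affymetrix Rat Gene 1.0 ST arrays. The rats were obese through their diet and had eaten one of 3 diets rich in fat and sucrose for 8 weeks, from 12 weeks of age. All 3 diets held 4.6 kcal/g with 10% of the energy as protein. In the leucine diet 7.1% of the energy was casein and 2.9% free leucine, in the dairy diet the protein came from skim milk powder, and in the casein diet, the control, it was casein alone. The design text gives 4 rats, and 2 arrays per diet were analysed. Since no label says that each array is a different rat, the p-values speak for these arrays alone and their spread may be technical. The tissue label is gastrocnemius, but the protocol texts name liver for storage and RNA extraction.

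The array medians lay between 3.46 and 3.56 on the log2 scale. All 10 slow-fibre markers and all 12 measured fast-fibre markers had a mean level above that of the median row. Casein array 2 stood apart: its mean correlation with the other arrays was 0.974, against 0.985 to 0.988 for the other 5. The signal summed over the 10 slow-fibre markers, on the linear scale, was 11787 to 13373 on the leucine arrays and 8969 to 10037 on the dairy arrays, against 11714 on casein array 1 and 919 on casein array 2. Summed over 15 hepatocyte markers it was 197 to 1664 on the leucine arrays, 232 to 617 on the dairy arrays and 1172 to 4990 on the casein arrays, with casein array 2 highest for all 15. Differences against casein of the 7 genes and of the gene lists are therefore also given without casein array 2. Of all genes, 60.8% had a value repeated to the last digit on 2 or more arrays, and 3 of the 7 genes described here did. A tie between diets was counted as an overlap.

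Ppara and Ucp3 were the 2 of the 7 genes with both leucine arrays above the other 4 arrays (28.6%, against 7.89% of all genes). The 250 bases before the start site that RefSeq's promoter table uses are shown for that reason, together with those of Ucp2, the next gene after Ucp3 on the same strand. For Ucp3 and Ucp2 this start is the first base of the annotated gene, while for Ppara both this start and the printed window lie within the annotated gene. The sequences are from RefSeq, build GRCr8, all on the plus strand, written 5′ to 3′. They lie at chr7:118712357-118712606 for Ppara, chr1:164227660-164227909 for Ucp3 and chr1:164251123-164251372 for Ucp2. Capitals mark AGGTCA, the core element that PPAR and RXR recognise.
Ppara: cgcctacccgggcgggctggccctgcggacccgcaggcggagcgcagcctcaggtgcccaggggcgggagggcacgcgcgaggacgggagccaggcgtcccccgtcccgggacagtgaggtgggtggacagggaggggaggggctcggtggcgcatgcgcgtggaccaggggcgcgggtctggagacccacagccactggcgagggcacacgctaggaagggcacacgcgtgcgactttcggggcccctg
Ucp3: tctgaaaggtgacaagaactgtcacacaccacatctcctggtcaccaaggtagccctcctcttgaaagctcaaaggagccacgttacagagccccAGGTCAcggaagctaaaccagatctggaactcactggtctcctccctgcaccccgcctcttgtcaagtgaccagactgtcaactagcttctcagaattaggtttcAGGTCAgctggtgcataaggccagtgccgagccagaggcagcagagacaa
Ucp2: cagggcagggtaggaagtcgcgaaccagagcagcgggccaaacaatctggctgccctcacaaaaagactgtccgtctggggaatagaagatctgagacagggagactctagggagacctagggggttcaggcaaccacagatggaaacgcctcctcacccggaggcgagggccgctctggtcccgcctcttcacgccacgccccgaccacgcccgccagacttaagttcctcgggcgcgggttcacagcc

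Both strands were searched for AGGTCA, for AGGTCA followed after any 1 base by a second AGGTCA, and for the E-box CANNTG. The core element was in the Ucp3 window 2 times, both on the strand of the gene, with first bases at −155 and −50 from the start. It was not in the windows of Ppara, Pparg, Rxra, Rxrg or Ucp2. Of 33469 rat promoters cut to the same length, 14.1% held the core element, 0.0508% the direct repeat and 65.5% an E-box. The direct repeat was in none of the 7 windows that the promoter table held for 6 of the genes. An E-box was found 2 times before Ucp3, 1 time each before Ppara, Ucp2 and both Pparg starts, and not before Rxra or Rxrg. These matches describe letters, not binding.

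Ppara was the gene of the set with the widest spread between diets, highest with leucine, intermediate with dairy and lowest with casein. Ucp3 was high on both leucine arrays and on 1 of the 2 dairy arrays. Rxra and Rxrg had narrower ranges over the 6 arrays than most genes, and Ppard a wider one than 66.3% of genes. Pparg stood out on 1 of the 2 dairy arrays. Ucp2 was higher on both dairy arrays than on both leucine arrays, with casein overlapping both diets. By limma, 0 of the 7 passed an adjusted p of 0.05 in any of the 3 comparisons or in the test for any difference among the 3 diets, and the share of all genes that passed was 0% in each. At an unadjusted p under 0.05, 1 of the 7, Ppara, was found in leucine against casein (14.3%, against 9.61% of all genes, 4.76% higher and 4.85% lower). None was found in dairy against casein (4.80% of all genes, 2.49% higher and 2.31% lower) or in leucine against dairy (5.70%, 2.25% higher and 3.45% lower). In the test over the 3 diets Ppara alone had an unadjusted p under 0.05 (7.25% of all genes). The arrays of both diets lay apart for 2 of the 7 in leucine against casein (28.6%, against 31.5% of all genes), for 2 in dairy against casein (28.6%, against 23.2%) and for 3 in leucine against dairy (42.9%, against 28.3%). Since 1 gene makes up 14.3% of the set, these shares are near those of all genes. A fold above 2 was found for 1 of the 7, Ppara in leucine against casein (1.47% of all genes, 0.489% higher), and for 0 of the 7 in dairy against casein (0.938%) and in leucine against dairy (0.731%).

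**Figure D1:**
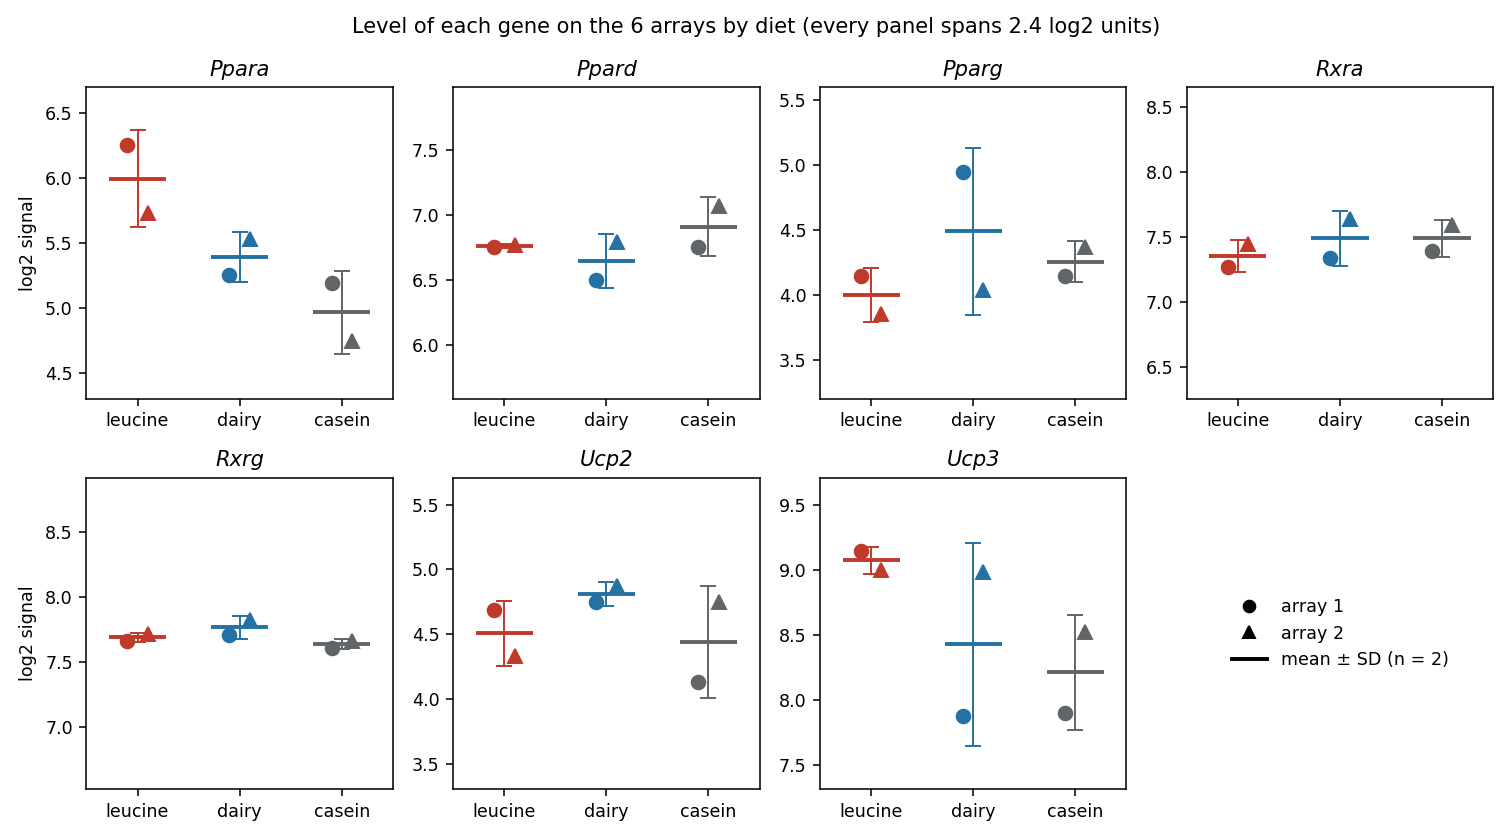
Level of each gene (log2 signal, vertical axis) by diet (horizontal axis, leucine, dairy, casein). Circles are array 1 and triangles array 2 of a diet, and bars are the mean ± SD of the 2 arrays. The Ppara arrays of the 3 diets do not overlap, dairy array 1 stands apart from dairy array 2 for Pparg and Ucp3, and the Rxrg arrays lie within 0.22 of each other.

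Ppara encodes the receptor best known for driving fatty acid oxidation genes in liver, heart and muscle. It stood at 6.26 and 5.74 on the leucine arrays, 5.26 and 5.53 on the dairy arrays, and 5.20 and 4.74 on the casein arrays (log2 signal). Both leucine arrays lay above both dairy arrays, and both dairy arrays above both casein arrays. Of the 7 genes 1 had this order (14.3%), as did 1.96% of all genes. The spread from its lowest to its highest array was 1.52, or 2.86-fold, wider than in 96.7% of genes. Leucine arrays averaged 5.998 ± 0.37, dairy arrays 5.39 ± 0.19 and casein arrays 4.97 ± 0.32 (SD over 2 arrays). Against casein, leucine had a log2 fold change of 1.03 ± 0.26 (SE; 95% confidence interval 0.33 to 1.72), 2.04-fold higher, with adjusted p = 0.407 by limma. Dairy against casein stood at 0.42 (−0.27 to 1.12), with adjusted p = 0.833, and leucine against dairy at 0.60 (−0.09 to 1.30), with adjusted p = 0.903 by limma. By an exact permutation test over the 3 diets p = 0.0667, the smallest that 3 diets of 2 arrays allow, and between 2 diets the smallest two-sided exact p is 0.333. The comparisons of leucine and of dairy with casein share the casein arrays.

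Casein array 2 held the lowest Ppara level. Without it, Ppara stood 0.80 higher with leucine than with casein and 0.20 higher with dairy than with casein on the log2 scale, and without casein array 1 the same differences were 1.26 and 0.65. Casein array 2 was also the array with the lowest slow-fibre markers, and their part in the Ppara difference was not tested. In bulk muscle, fewer cells of a type and less RNA per cell cannot be told apart.

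Ppard, the PPAR with a main role in the oxidative programme of skeletal muscle, stood at 6.75 and 6.77 on the leucine arrays, 6.50 and 6.79 on the dairy arrays, and 6.75 and 7.07 on the casein arrays. All 3 diets overlapped, with dairy array 1 lowest and casein array 2 highest. Its log2 fold change was −0.15 ± 0.16 for leucine against casein, −0.27 ± 0.16 for dairy against casein and 0.12 ± 0.16 for leucine against dairy (SE, n = 2 against 2). The 95% intervals were −0.57 to 0.27, −0.69 to 0.16 and −0.31 to 0.54, and as folds the interval of dairy against casein ran from 0.619 to 1.11. Without casein array 2 leucine against casein was 0.01 and dairy against casein −0.11.

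Pparg, the receptor that directs fat cell formation, stood at 4.15 and 3.85 on the leucine arrays, 4.94 and 4.03 on the dairy arrays, and 4.15 and 4.37 on the casein arrays. A single array, dairy array 1, stood 0.91 above the other dairy array (1.88-fold). The diets overlapped in each comparison with dairy, and a shared value of 4.15 joined leucine array 1 with casein array 1. The log2 fold change was −0.26 ± 0.34 for leucine against casein, 0.23 ± 0.34 for dairy against casein and −0.49 ± 0.34 for leucine against dairy (SE). Without casein array 2 the values against casein were −0.15 for leucine and 0.34 for dairy. With dairy array 1 left out, dairy against casein turned to −0.22 and leucine against dairy stood at −0.03.

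Markers of adipocytes, the cells in which PPAR gamma is most abundant, were also high on dairy array 1. The signal summed over 9 of 10 adipocyte markers was 231 to 246 on the leucine arrays, 556 on dairy array 1 and 253 on dairy array 2, and 309 on casein array 1 and 510 on casein array 2. Of the 9 markers, 3 had their highest level on dairy array 1 and 5 on casein array 2, and 1, Slc36a2, lay below the median of every array. The part of these markers in the Pparg levels was not tested.

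Rxra, the widely expressed retinoid X receptor, stood at 7.27 and 7.44 on the leucine arrays, 7.34 and 7.64 on the dairy arrays, and 7.39 and 7.59 on the casein arrays. The diets overlapped in all 3 comparisons, and the lowest and highest arrays were 1.29-fold apart. The log2 fold change was −0.13 ± 0.15 for leucine against casein (−0.53 to 0.26) and 0.0009 ± 0.15 for dairy against casein (−0.39 to 0.39). These values were −0.03 and 0.10 without casein array 2. Leucine against dairy stood at −0.14 ± 0.15 (−0.53 to 0.26).

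Rxrg, the retinoid X receptor enriched in skeletal muscle, was the steadiest gene of the set. It stood at 7.66 and 7.72 on the leucine arrays, 7.71 and 7.83 on the dairy arrays, and 7.61 and 7.66 on the casein arrays. Its spread over the 6 arrays was 0.22, or 1.16-fold, and 18.6% of all genes had a smaller one. Both dairy arrays lay above both casein arrays, by a log2 fold change of 0.13 ± 0.07 (−0.07 to 0.33), adjusted p = 0.833 by limma. After quantile normalization this difference was −0.0010, so its direction rests on the scaling. Leucine stood at 0.05 ± 0.07 against casein, and at −0.04 after quantile normalization. Against casein array 1 alone, leucine stood at 0.08 and dairy at 0.16. Leucine against dairy was −0.08 ± 0.07. The interval for leucine against casein, −0.14 to 0.25, reaches a fold of 1.19 at its upper end. Rxrb, the remaining retinoid X receptor and no member of the set, read 5.37 on 5 arrays and 5.60 on casein array 1.

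Ucp3 stood at 9.15 and 9.003 on the leucine arrays, 7.88 and 8.98 on the dairy arrays, and 7.90 and 8.53 on the casein arrays. Both leucine arrays lay above the other 4, but dairy array 2 lay close to the lower leucine array. Leucine arrays averaged 9.08 ± 0.10, dairy arrays 8.43 ± 0.78 and casein arrays 8.21 ± 0.45 (SD over 2 arrays). Leucine against casein had a log2 fold change of 0.86 ± 0.44 (SE; −0.32 to 2.04), 1.82-fold higher, with adjusted p = 0.632 by limma. Leucine against dairy stood at 0.65 ± 0.44 (−0.53 to 1.83) and dairy against casein at 0.22 ± 0.44 (−0.96 to 1.40).

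The 2 dairy arrays of Ucp3 differed by 1.11, or 2.15-fold, which is more than any of its differences between diets. Without dairy array 1, leucine against dairy was 0.09 and dairy against casein 0.77, and without dairy array 2 these values were 1.2002 and −0.34. Ucp3 was not lowest on casein array 2, unlike Ppara. Leucine against casein was 1.18 without casein array 2 and 0.55 without casein array 1, and dairy against casein was 0.53 and −0.10 in the same order. The part of the slow-fibre markers in the Ucp3 levels was not tested.

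Ucp2 stood at 4.68 and 4.33 on the leucine arrays, 4.75 and 4.88 on the dairy arrays, and 4.14 and 4.75 on the casein arrays. Both dairy arrays lay above both leucine arrays, while the casein arrays spanned most of the range and met both other diets, with 4.75 shared by dairy array 1 and casein array 2. The log2 fold change was −0.30 ± 0.25 for leucine against dairy (−0.97 to 0.37), with adjusted p = 0.903 by limma. Dairy against casein stood at 0.37 ± 0.25 (−0.30 to 1.04) and leucine against casein at 0.07 ± 0.25 (−0.60 to 0.74). Without casein array 2 these last values were 0.68 and 0.37, and without casein array 1 they were 0.07 and −0.24. The signal summed over 13 macrophage and leukocyte markers was 369 to 409 on the leucine arrays, 635 to 676 on the dairy arrays and 456 to 990 on the casein arrays, with Adgre1 and Itgam below the median of every array. Of the casein pair, array 2 had the higher value for both Ucp2 and this sum, and of the leucine pair array 1 did. Of the dairy pair, array 2 had the higher Ucp2 level, while the sum was 676 on array 1 and 635 on array 2. The part of these cells in the Ucp2 level was not tested. Ucp2 and Ucp3 are neighbours in the genome, and their deviations from their own means differed by 0.43 on average over the 6 arrays. The deviations of Ucp3 itself averaged 0.47. By the same measure Ucp3 lay 0.38 from Ppara, the nearest of the set, and 0.71 from Pparg, the farthest. Ucp1, the carrier that makes heat in brown fat, read 2.03 to 2.48, below the lowest array median.

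**Figure D2:**
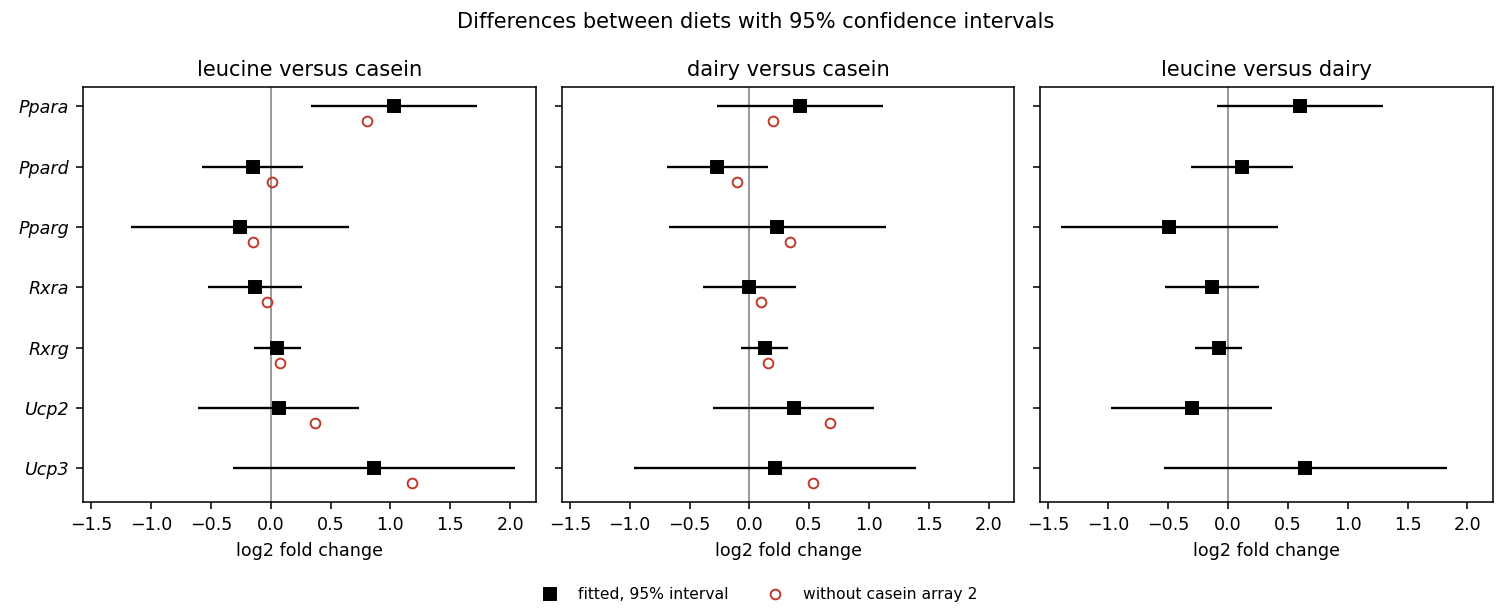
Log2 fold change (horizontal axis) of each gene in leucine against casein, dairy against casein and leucine against dairy. Squares are fitted values and lines their 95% confidence intervals, and open circles are the values without casein array 2. Of the 21 intervals, only that of Ppara in leucine against casein (0.33 to 1.72) lies on one side of 0.

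Most known target genes of PPARs stood higher with leucine than with casein. Of 38 listed targets 34 were measured, and 29 stood higher and 5 lower with leucine than with casein, with a median log2 fold change of 0.63 against 0 over all genes. The arrays lay apart with leucine on top for 18 of the 34 and with casein on top for 0, where 15.9% of all genes had leucine on top. By limma 0 of the 34 passed an adjusted p of 0.05, and 5 had an unadjusted p under 0.05, all higher, against 4.76% of all genes. Without casein array 2, which held the lowest level of 26 of the 34, the counts were 26 higher and 7 lower and the median was 0.32. All 10 slow-fibre markers stood higher and all 15 hepatocyte markers lower with leucine than with casein (medians 2.21 and −1.23). Without casein array 2, 5 slow-fibre markers stood higher and 5 lower (median −0.006), and 3 hepatocyte markers higher and 12 lower (median −0.33). The part of both marker sets in the target levels was not tested.

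Pdk4, a kinase that turns muscle from glucose to fat oxidation, stood at 11.69 and 11.40 on the leucine arrays, 10.44 and 11.26 on the dairy arrays, and 10.29 and 9.94 on the casein arrays. Lpl, the lipase that frees fatty acids from circulating triglyceride, stood at 9.76 and 10.36 on the leucine arrays, 9.07 and 9.34 on the dairy arrays, and 8.999 and 8.78 on the casein arrays. These 2 were the targets, of 34, with the full order of Ppara, leucine above dairy above casein. Etfdh, which passes electrons from fatty acid oxidation to the respiratory chain, stood at 9.37 and 9.26 with leucine, 8.31 and 9.04 with dairy, and 8.55 and 7.88 with casein. Fabp3, the fatty acid binding protein of muscle, stood at 10.79 and 10.69 with leucine, 9.25 and 10.45 with dairy, and 9.94 and 7.83 with casein. As for Ucp3, the lower dairy value was on dairy array 1 for most of the 34 targets, among them Pdk4, Lpl, Etfdh and Fabp3. Angptl4, a secreted inhibitor of lipoprotein lipase, had a log2 fold change of 0.71 ± 0.40 for leucine against casein, or 0.45 without casein array 2, and Cd36, a fatty acid transporter, one of 1.06 ± 0.46 that was 0.52 without it. Cpt1b, the muscle enzyme that admits fatty acids to mitochondria, stood at 0.33 ± 0.27, or −0.06 without that array, and its liver counterpart Cpt1a at −0.22 ± 0.30 (−0.64 with casein array 2 dropped, 0.20 with casein array 1 dropped). Plin2, a lipid droplet protein, stood at 0.10 ± 0.23, and dropping casein array 2 gave 0.42, dropping casein array 1 gave −0.22.

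In dairy against casein 29 of the 34 targets stood higher and 5 lower, with a median of 0.27 against 0.0028 over all genes. The arrays lay apart with dairy on top for 4 and with casein on top for 1, against 11.5% and 11.7% of all genes. Here 0 passed an adjusted p of 0.05 by limma, and 1, Txnip, had an unadjusted p under 0.05, with 2.49% of all genes higher at that level. Without casein array 2 the counts turned to 11 higher and 22 lower, with a median of −0.10. In leucine against dairy 28 stood higher and 6 lower, with a median of 0.35 against 0 over all genes. The arrays lay apart with leucine on top for 21 of the 34 and with dairy on top for 2, against 13.4% and 14.9% of all genes. These counts were not made without dairy array 1, the lower dairy array for most targets. In the same comparison 9 of 10 slow-fibre markers stood higher (median 0.44), and 11 of 12 fast-fibre, 13 of 13 macrophage and leukocyte and 8 of 8 fibroblast markers stood lower (medians −0.26, −0.64 and −1.41). Their part in the target levels was not tested. By limma 0 of the 34 passed, and 2 higher and 1 lower had an unadjusted p under 0.05, against 2.25% and 3.45% of all genes. The 2 higher were Lpl at 0.85 ± 0.24 and Hadhb, a subunit of the trifunctional protein of fatty acid oxidation, at 0.61 ± 0.18. The lower was Txnip, a thioredoxin-binding protein that restrains glucose uptake, at −0.26 ± 0.08.

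**Figure D3:**
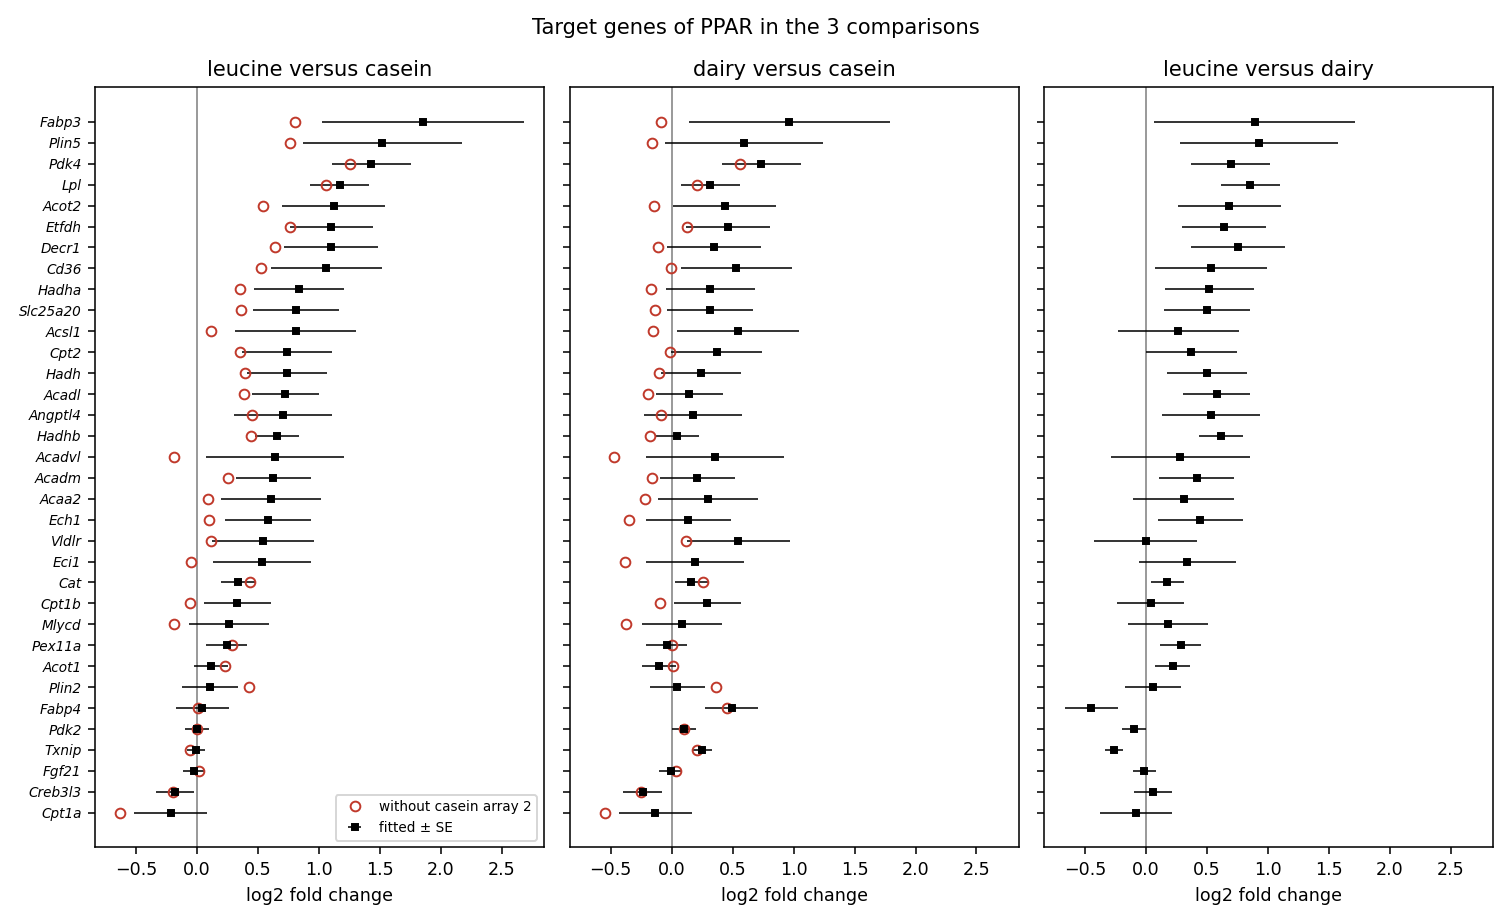
Log2 fold change (horizontal axis) of the 34 measured PPAR target genes (rows, ordered by leucine against casein) in the 3 comparisons. Squares are fitted values ± SE, and open circles are the values without casein array 2. With leucine against casein 29 squares and 26 circles lie above 0, and with dairy against casein 29 squares but 11 circles do.

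Among the coregulators, proteins that these receptors recruit to switch transcription on or off, 15 of 19 were measured. With leucine against casein 13 stood higher and 2 lower, with a median of 0.17, or 0.12 without casein array 2. By limma 0 passed an adjusted p of 0.05 in any comparison. In leucine against casein 2 had an unadjusted p under 0.05, the coactivator Ncoa3 at 0.32 ± 0.10 and the mediator subunit Med1, which binds PPARs directly, at 0.38 ± 0.13 (0.24 with casein array 1 dropped). With dairy against casein 12 stood higher and 3 lower, and 2 had an unadjusted p under 0.05, Ncoa3 at 0.37 ± 0.10 and Tbl1x, a corepressor subunit, at 0.27 ± 0.10. At that level 4.76% of all genes were higher in leucine against casein and 2.49% in dairy against casein. Dairy against casein had 10 higher and 5 lower without casein array 2. Under quantile scaling each comparison with casein had 10 higher and 5 lower, with medians of 0.11 for leucine and 0.03 for dairy. In both, 0 coregulators had an unadjusted p under 0.05 by limma after that scaling. In leucine against dairy 7 stood higher and 8 lower, but 11 and 4 under quantile scaling and 8 and 7 with the arrays set to one median, and 0 had such a p. Ppargc1a, the coactivator PGC-1 alpha that links PPARs to mitochondrial genes, stood at 6.92 and 6.26 on the leucine arrays, 6.12 and 6.51 on the dairy arrays, and 6.20 and 6.19 on the casein arrays. Its leucine and casein arrays lay apart, with a log2 fold change of 0.39 ± 0.27, adjusted p = 0.674 by limma. Ppargc1b stood at 0.44 ± 0.40 and, without casein array 2, at −0.10. The corepressor Ncor1 stood at 0.08 ± 0.08 for leucine and 0.12 ± 0.08 for dairy, each against casein.

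Other nuclear receptors stood mostly higher with dairy than with either other diet. Of 18 measured out of 22, 7 stood higher and 11 lower with leucine than with casein, with a median of −0.04, and 13 stood higher and 5 lower with dairy than with casein, with a median of 0.12. In leucine against dairy 4 stood higher and 12 lower, with a median of −0.10, or 7 and 11 with a median of −0.07 after quantile normalization. The arrays lay apart with dairy on top for 7 of the 18 and with leucine on top for 3, against 14.9% and 13.4% of all genes. The list includes Vdr, Esrrb and Nr2f1, which lay below the median of every array. With casein array 2 dropped, 7 were higher and 10 lower in leucine against casein, and 11 higher and 7 lower in dairy against casein. The median of leucine against casein was 0.02 with the arrays set to one median, so its direction rests on the scaling. By limma 0 passed in the 3 comparisons. An unadjusted p under 0.05 was found for 1 higher and 1 lower in leucine against casein, 2 higher in dairy against casein and 1 lower in leucine against dairy. Of all genes 4.76% were higher and 4.85% lower at that level in leucine against casein, 2.49% higher in dairy against casein and 3.45% lower in leucine against dairy. Esrrg, an orphan receptor of oxidative muscle, stood at 6.38 and 6.83 on the leucine arrays, 5.44 and 6.05 on the dairy arrays, and 5.89 and 5.25 on the casein arrays. Like Ppara and Ucp3 it had both leucine arrays above the other 4, with a log2 fold change against casein of 1.04 ± 0.34, or 0.71 without casein array 2. The related Esrra stood at 0.31 ± 0.31, and at −0.09 without that array. Nr1d1, the clock repressor REV-ERB alpha, stood at 5.86 and 6.11 with leucine, 8.14 and 7.88 with dairy, and 7.46 and 6.81 with casein, with no overlap between any of the diets. Its difference between leucine and dairy was −2.02 ± 0.26, with adjusted p = 0.514 by limma.

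Of the other carriers of the mitochondrial inner membrane, the family that holds the uncoupling proteins, 13 of 16 were measured. With leucine against casein 7 stood higher and 5 lower, and the median of 0.01 turned to −0.02 under quantile scaling. By limma 0 passed in any comparison, and 2 higher and 1 lower had an unadjusted p under 0.05 in leucine against casein, against 4.76% and 4.85% of all genes. The carriers had 8 higher and 3 lower without casein array 2. The phosphate carrier Slc25a3 stood at 0.43 ± 0.13, or 0.26 without casein array 2. Slc25a14, also named UCP5, stood at 0.27 ± 0.09, but with levels of 3.02 to 3.43 it lay below the median of every array. Slc25a30, a close relative of Slc25a14, stood at 6.55 and 6.26 with leucine, 6.93 and 6.35 with dairy, and 7.12 and 7.34 with casein, a log2 fold change of −0.83 ± 0.24 for leucine against casein. Of 13 genes for the supply of lipid ligands, all measured, 8 stood higher and 5 lower with leucine than with casein, with a median of 0.04, and 7 higher and 5 lower without casein array 2. Of these, only the prostaglandin synthase gene Ptges had an unadjusted p under 0.05 (4.85% of all genes were lower at that level). It stood at −0.54 ± 0.14, or −0.36 without casein array 2, and 0 of the 13 passed by limma. Ptges read 2.99 to 3.78 and lay below the array median on every array but casein array 2. Pla2g4a, Alox15, Ptgs2, Ptgds and Fabp5 of this list lay below the median of every array.

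Genes with the pattern most like each member were sought among the 7253 genes brighter than the median gene, by the mean absolute difference between their deviations from their own means over the 6 arrays. For Ucp3, whose own deviations averaged 0.47, the nearest were Ndufa3 at 0.07, Ndufb6 at 0.10 and Kansl2 at 0.12. Ndufa3 and Ndufb6 encode subunits of respiratory complex I, and Ndufa3 stood at 8.20 and 8.21 with leucine, 6.76 and 8.09 with dairy, and 6.92 and 7.60 with casein. For Ppara, with an average of 0.39, they were Atp5mc3, a subunit of ATP synthase, Kremen1 and Tmem19, each at 0.10. Atp5mc3 stood at 10.00 and 9.74 with leucine, 9.23 and 9.57 with dairy, and 9.25 and 8.95 with casein. For Pparg, with an average of 0.27, they were Car5b, a mitochondrial carbonic anhydrase, Ano6 and Man1a1, at 0.07 to 0.10, all highest on dairy array 1. Ucp2 lay nearest to Triap1, Rbpms and Peak1, at 0.06 to 0.07, with an average of 0.24 for Ucp2. For Ppard, Rxra and Rxrg, whose own deviations averaged 0.05 to 0.11, the nearest were Tmem158, Gdf11 and Proser1, and such narrow patterns say little. With 6 arrays and many genes close patterns can be found for most genes.

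**Figure D4:**
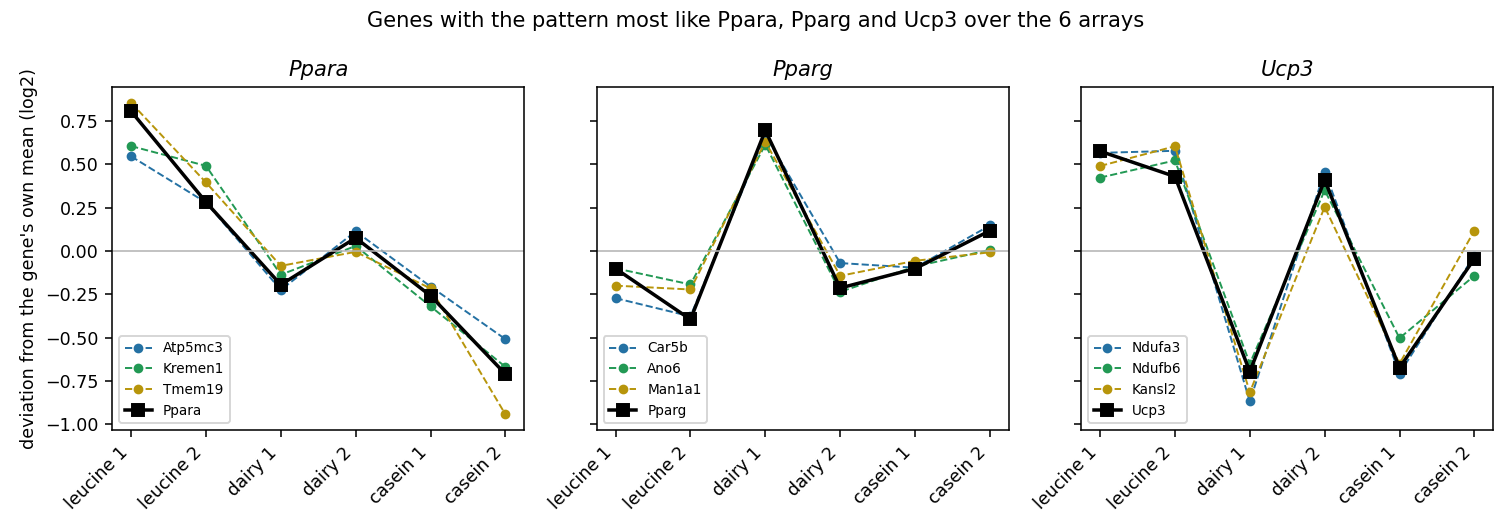
Deviation from the gene's own mean (log2, vertical axis) on each array (horizontal axis) for Ppara, Pparg and Ucp3 in black and the 3 genes with the most similar pattern in colour. The lines only guide the eye. Ppara is highest on the leucine arrays and lowest on the casein arrays, Pparg is high on dairy array 1, and Ucp3 is low on dairy array 1 and casein array 1.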

How the data were processed

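The authors deposited log2 signals for each transcript cluster of the array. Per the submitters' processing notes the software was Affymetrix Expression Console. The sources used here give neither its version nor the normalization, summarization or genome build. The table held 29214 rows, of which 13581 had no gene symbol and 323 several genes. The 15310 rows with 1 symbol, updated through gene identifiers, gave 14506 genes, and 527 genes with several rows kept the row with the highest mean. No filter on dim genes was used, and background readings were not analysed here.

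Diets were compared with limma 3.58.1 (R 4.3.3), with diet as the only term over all 6 arrays and 3 residual degrees of freedom. Benjamini-Hochberg adjustment ran over all 14506 genes (threshold 0.05), and the procedure was tested on simulated data. Only 2 arrays per diet limit the precision. Levels were not compared between genes.

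The genes, lists, motifs and tests were chosen with earlier results of these data known. Besides the 7 members the text names partner and target genes fixed by symbol, of which some are not reported here, and, per list, up to 4 genes with the smallest p in a comparison among those whose arrays lie apart, and the 3 genes most like each member. Marker lists were slow and fast fibre, adipocyte, hepatocyte, macrophage, endothelial and fibroblast. Endothelial markers summed to 510 to 548 with leucine, 617 to 668 with dairy and 471 to 515 with casein, and fibroblast markers to 781 to 844, 1893 to 2874 and 1831 to 2131 in the same order. Fast-fibre markers summed to 58849 to 59978 with leucine, 65074 to 75832 with dairy and 58066 to 69674 with casein. For each gene the difference between the 2 arrays of a diet was taken, in the order of their numbers. These differences correlated at 0.0865, 0.179 and 0.0536 between pairs of diets. Only 0.179 exceeds 0.1, and the samples were therefore treated as unpaired. Alternatives were quantile and median scaling, dim genes left out, other choices of row, a variance trend, 2 diets at a time, a replicate block and leaving out each array.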

Additional observations from a re-analysis of the deposited data

How the results depend on the processing

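None of the 7 genes passed an adjusted p of 0.05 in any comparison under the 8 changes of processing or with any of the 6 arrays left out. With a replicate block, which the numbering does not support as a pairing, 0 of the 7 and 0 of all genes passed, with the lowest adjusted p among the 7 at 0.402 for leucine against casein, 0.783 for dairy against casein and 0.798 for leucine against dairy. The count of all genes was 0 to 1 with single arrays left out, in both comparisons with casein. The 1 gene, Il6, was called without casein array 1, when the lone casein array 2 was assumed to vary like the other diets. Of 21 fold changes under the 8 changes of processing, 3 turned in sign, all after quantile normalization: Rxrg to −0.0447 in leucine against casein and to −0.0010 in dairy against casein, and Rxra to −0.12 in dairy against casein. With single arrays left out, values that turned ranged from −0.31 to 0.0101 for Ppard and −0.24 to 0.37 for Ucp2 in leucine against casein. In dairy against casein they ranged from −0.22 to 0.69 for Pparg, −0.15 to 0.15 for Rxra and −0.34 to 0.77 for Ucp3, and in leucine against dairy from −0.0298 to 0.26 for Ppard and −0.28 to 0.0139 for Rxra. Ppara kept its sign in every such fit, at 0.77 to 1.29 for leucine against casein, 0.20 to 0.65 for dairy against casein and 0.34 to 0.87 for leucine against dairy. The counts of list members without casein array 2 were added after the data were seen.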

Other observations

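For Ppard, Rxra and Rxrg array 2 stood above array 1 in all 3 diets, so that these 3 of the 7 genes followed the array number (42.9%, against 11.0% of all genes). The array medians were also higher on array 2 in all 3 diets. Between the leucine arrays Ppard differed by 0.02, less than the medians did, Rxrg by 0.05 and Rxra by 0.17. The count was not made with the arrays set to one median, so a part of the scaling in it was not tested. What the array number stands for is not given in the sources used here. Ppara and Ucp3, the 2 genes highest with leucine, differed in which casein array was low. Ppara read 5.20 on casein array 1 and 4.74 on casein array 2, and Ucp3 read 7.90 and 8.53 in the same order.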
